A study of Sus scrofa with 18 samples.

Results

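The respiratory chain genes are 87 of the 31908 genes in the gene count table, named for subunits or complex I assembly factors of mitochondrial oxidative phosphorylation. They were taken by name, as the nuclear genes whose symbol begins with NDUF, UQCR, ATP5 or COX4 to COX8, the SDH genes A to D, and the named protein genes of the mitochondrial chromosome (MT). Of the 87 genes, 74 were nuclear and 13 mitochondrial. Grouped by name, with NDUFA4 placed in complex IV, the nuclear genes comprised 31 genes and 8 assembly factors of complex I. Complex II had 3 genes, complex III 5, complex IV 13 and complex V 14. NDUFA4L2, COX7A2L and ATP5IF1 are counted under complexes I, IV and V by name alone. The mitochondrial genes comprised 7 subunits of complex I, 1 of complex III, 3 of complex IV and 2 of complex V. Another 5 nuclear subunits (NDUFA7, NDUFB1, SDHA, UQCR11 and COX7B) have no symbol in the count table and were found through a table of gene names, and their values are given apart.

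The data are mRNA-seq read counts of whole fetal pig brains at gestation days (GD) 45, 60 and 90, with 3 female and 3 male fetuses at each day. All fetuses came from Landrace x Large White gilts carrying litters sired by LR-M6 boars, and no group received a treatment. Each library is 1 fetus and is named here by its piglet number. Within a day each litter size recurs in exactly 1 female and 1 male, which were taken as littermates, so the 18 fetuses stand for 9 litters. A whole brain mixes cell types whose shares change with gestation, and in such samples fewer cells of a type cannot be told apart from less RNA per cell.

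Complexes I to IV pass electrons from NADH and succinate to oxygen and pump protons across the inner mitochondrial membrane, and complex V, the ATP synthase, uses that gradient to make ATP. Most subunits are encoded in the nucleus, translated in the cytosol and imported, whereas the core subunits on MT are transcribed as long polycistronic RNAs inside the organelle. Complex II is the complex with nuclear subunits only. The brain depends heavily on oxidative phosphorylation, and several subunits exist as isoforms that differ between tissues or with oxygen supply.

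The libraries held 15118843 to 19729783 counts. Listed marker genes of neurons summed to 2326 to 3726 counts scaled to a common library total (CPM) at GD45 and to 6312 to 6895 CPM at GD90, while progenitor markers fell from 1379 to 1569 CPM to 461 to 605 CPM and oligodendrocyte markers rose from 55.7 to 87.3 CPM to 1889 to 3214 CPM. Skeletal muscle markers, of a tissue that could be carried over in dissection, summed to 17.9 to 33.7 CPM in all 18 libraries. The part of these changes in cell markers in the results below was not tested. GD45 male 17 stood apart from the other libraries in the nuclear genes, and 6 libraries stood apart in the mitochondrial genes. Both are described with the results they touch.

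The 6 libraries were GD45 females 12 and 13, GD45 males 11 and 14, GD60 female 3 and GD60 male 4, which are both littermates of 3 litters. They are set off by ATP8, a subunit of complex V encoded at MT:8959-9162, and by ssc-mir-10390, a microRNA gene of the annotation at chr9:4700784-4700878 on the minus strand. On Sscrofa11.1, ssc-mir-10390 lies across the junction of 2 abutting nuclear copies of mitochondrial DNA, chr9:4700025-4700824 and chr9:4700822-4701654. The next copy begins at the following base, and its part at chr9:4701993-4702188 carries 196 of the 204 bases of ATP8. The sequences of ATP8, of that copy and of ssc-mir-10390 are shown because the counts of ATP8 and ssc-mir-10390 move in opposite directions. No counts of the copy of ATP8 itself are given here. Capitals mark the 3 bases at which ATP8 and its copy differ and, in ssc-mir-10390, the 57 bases that lie in the second of the 2 copies, the others lying in the first.
ATP8: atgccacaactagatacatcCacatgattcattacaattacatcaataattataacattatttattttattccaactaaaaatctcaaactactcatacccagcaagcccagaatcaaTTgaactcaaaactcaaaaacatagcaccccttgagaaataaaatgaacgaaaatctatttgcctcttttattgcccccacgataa
copy of ATP8: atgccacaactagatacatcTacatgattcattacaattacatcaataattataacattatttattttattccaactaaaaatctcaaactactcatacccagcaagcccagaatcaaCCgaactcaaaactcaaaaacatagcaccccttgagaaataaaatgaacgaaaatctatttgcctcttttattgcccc
ssc-mir-10390: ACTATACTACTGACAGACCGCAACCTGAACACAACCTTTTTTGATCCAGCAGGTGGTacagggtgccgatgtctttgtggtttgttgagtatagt
The differences, ATP8 first and counted from its first base, are C21T, T119C and T120C, and the identity over the 196 bases is 98.5%. All sequences are the Sscrofa11.1 reference read on the strand of each gene.

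In the 6 libraries ssc-mir-10390 had 2050 to 3001 counts, and in the other 12 it had 2 to 26. ATP8 was the mirror image. It had 1 to 14 counts in the 6 libraries and 610 to 4478 in the 12, or 0.0653 to 0.882 CPM against 40.2 to 242 CPM, a ratio of medians of 269. No library was in between, and the split ran by litter and not by sex. At GD45 it held 4 of 6 libraries, at GD60 2 of 6 and at GD90 0 of 6, so it is partly confounded with gestation day.

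Over all days, the medians of the other mitochondrial genes were lower in the same 6 libraries, to unequal degrees. The 12 libraries hold all those of GD90, so gestation day is mixed into the ratios below. The ratio of medians between the 12 and the 6 libraries was 4.87 for ND1, 3.43 for ND2, 2.78 for ND6, 2.19 for COX2 and 2.02 for COX1. It was 1.66 to 1.78 for ATP6, COX3 and CYTB. For all of these the 2 sets of libraries did not overlap in CPM. The share of all genes that separate the 2 sets in this way was not determined. For ND3, ND4, ND4L and ND5 they overlapped, with ratios of 1.32 to 1.91. Within a day, the mean of ND4L was higher in libraries of the 6 than in the others. It was 102 against 84.2 CPM at GD45 and 127 against 99.3 CPM at GD60. For ND4 the means were 819 against 806 CPM at GD45 and 1019 against 1156 CPM at GD60. For ND5 they were 131 against 147 and 193 against 191 CPM, and for ND3 347 against 399 and 386 against 490 CPM. Within GD45 alone, ND1 was at 149 to 226 CPM in the 4 libraries and at 657 and 860 CPM in the other 2, while ND5 was at 100 to 153 CPM in the 4 and at 82.1 and 211 CPM in the other 2. Matches to the nuclear chromosomes of at least 98% identity covered 96.1% of ATP8, 43.7% of COX1, 39.2% of COX2, 34.5% of ND2, 15.7% of ND1 and 5.14% of ATP6, and none of the other 7 mitochondrial genes. At 94% identity they covered 62.8% of COX2, 33.5% of ND6 and 30.4% of ND1, and the other genes were unchanged. How the counting treated reads that match several places is not given in the sources used here, and the part of the nuclear copies in these differences was not tested. Day comparisons of mitochondrial genes are therefore also given with ssc-mir-10390 above 1000 counts as a term of the fit, and without the 6 libraries.

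**Figure D1:**
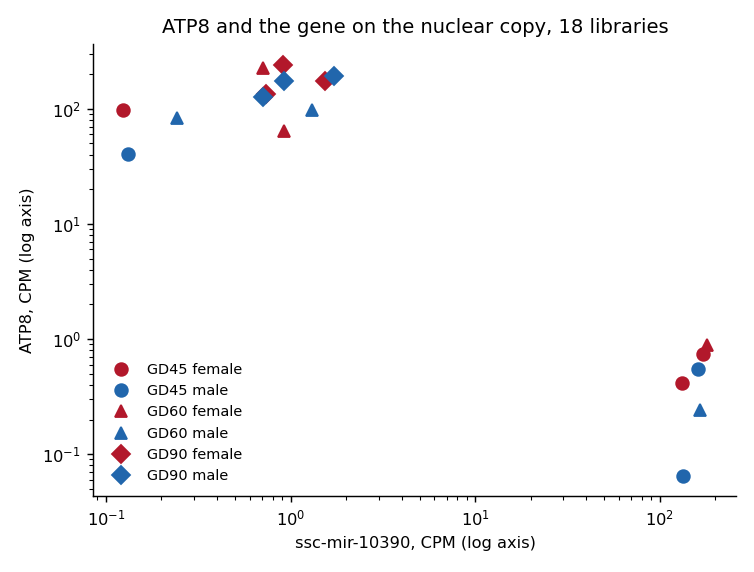
CPM of ATP8 (y axis, log scale) against CPM of ssc-mir-10390 (x axis, log scale), with 1 point per library, coloured by sex and shaped by gestation day. The 6 libraries with ssc-mir-10390 at 132 to 181 CPM have ATP8 at 0.882 CPM or below, and the other 12 have ATP8 at 40.2 CPM or above.

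Mitochondrial RNA made up a larger share of the libraries at later days. The 13 mitochondrial genes took 1.58% ± 0.451 of the counts at GD45, 2.18% ± 0.822 at GD60 and 3.01% ± 0.322 at GD90 (mean ± SD, n = 6 each). The lowest GD90 library, at 2.60%, was above the highest GD45 library, at 2.28%, while GD60 ranged from 1.37% to 3.68% and overlapped both. The 74 nuclear genes, in contrast, summed to 7920 ± 1543, 6980 ± 861 and 7262 ± 1227 CPM at the 3 days and overlapped between all of them. Mitochondrial counts per nuclear count were 1.49 to 3.19 at GD45, 2.34 to 4.74 at GD60 and 3.41 to 5.34 at GD90. Without the 6 libraries, the mitochondrial share at GD45 rests on 2 littermates and was 2.12%. At GD60 the libraries of the 6, female 3 and male 4, were at 1.37% and 1.57%, and the others at 1.96% to 3.68%. The share at GD90 holds none of the 6 and stays at 3.01%.

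**Figure D2:**
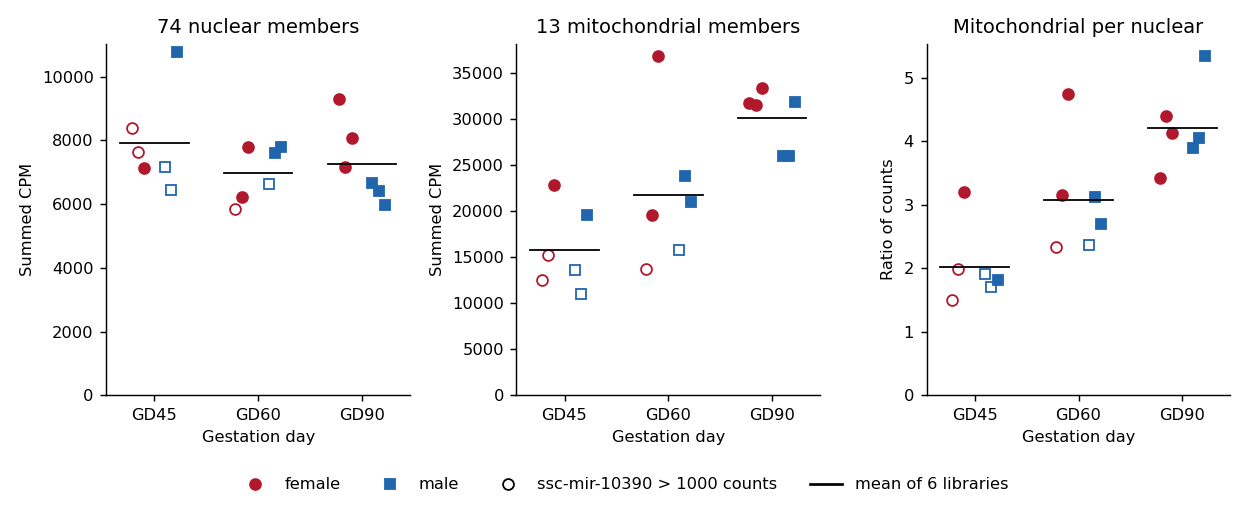
Summed CPM of the 13 mitochondrial and the 74 nuclear genes, and their ratio, in each library by gestation day. Circles are females, squares males, open symbols the 6 libraries with high ssc-mir-10390, and lines the means of 6 libraries. The mitochondrial sums at GD90 (25965 to 33314 CPM) lie above all those at GD45 (11001 to 22758 CPM), and the nuclear sums overlap at all days.

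Per kilobase of gene length, the highest 11 of the genes were mitochondrial. ATP6 was first, at 6317 CPM per kilobase over the 18 libraries, followed by COX3 at 5557, COX2 at 4193 and COX1 at 3502. The highest nuclear genes were COX8A, a small subunit of complex IV, at 432 CPM per kilobase, ATP5F1B, the catalytic beta subunit of ATP synthase, at 402 and NDUFA4, a complex IV subunit once assigned to complex I, at 361. ND5 and ND6, the largest and the only light-strand-encoded of the mitochondrial subunits, were at 131 and 130 CPM per kilobase, in the range of nuclear subunits.

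Between GD45 and GD90 all 13 mitochondrial genes had a positive log2 fold change (median 1.09, against -0.03 over all genes), and 12 rose past an adjusted p of 0.05 in the edgeR quasi-likelihood test, adjusted by Benjamini-Hochberg over all 16325 genes tested. Of those genes, 57.5% changed and 28.3% rose. In 10 of the 13 genes the lowest GD90 library lay above the highest GD45 library, as in 16.6% of all genes (the reverse was seen in 16.5%). With the term for ssc-mir-10390, 9 of the 13 rose (median 0.49), beside 59% of all genes that changed in that fit. ND3, ND4, ND4L, ND5 and COX3 rose in the main fit and with the term. Without the 6 libraries GD45 rests on littermates female 18 and male 17, so log2 fold changes alone are given here. They were 0.56, 1.09, 1.70, 1.50 and 0.49 for these genes. Male 17 had the lowest ND4, ND4L and ND5 of all 18 libraries, at 525, 27.4 and 82.1 CPM. ND1, ND2, COX2 and CYTB, at log2 fold changes of 1.55, 1.31, 0.83 and 0.65 in the main fit, did not pass with the term. With the term and without the 6 libraries they were at 0.10 to 0.49.

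ND5, a proton-pumping subunit of complex I, was called in all 3 comparisons of days. Its lowest, median and highest CPM were 82.1, 135 and 211 at GD45, 126, 198 and 232 at GD60, and 340, 376 and 460 at GD90. All GD90 libraries were above all earlier ones, while GD45 and GD60 overlapped. The log2 fold change was 0.51 (SE 0.16, adjusted p = 0.035) from GD45 to GD60, a rise not called in 12 of 29 alternative fits, and 1.06 (SE 0.16, adjusted p = 4.77e-05) from GD60 to GD90. From GD45 to GD90 it was 1.57, and it was 1.50 both with the term and without the 6 libraries. The fit without the 6 libraries keeps GD45 male 17, which held the lowest value of 82.1 CPM.

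ND4L and ND4, neighbouring subunits of complex I on MT, followed ND5. ND4L was at 27.4 to 141 CPM (median 103) at GD45, 70.7 to 131 CPM (median 117) at GD60 and 159 to 278 CPM (median 213) at GD90. Its GD90 libraries too were above all earlier ones, as those of 11.6% of all genes were above GD60 (12.7% were below), and it rose from GD60 to GD90 by a log2 fold change of 1.01 (SE 0.22, adjusted p = 0.00149). For ND4 the change was 0.63 (SE 0.16, adjusted p = 0.00385), with GD60 and GD90 overlapping through GD60 female 15.

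From GD60 to GD90, 5 of 13 mitochondrial genes rose (ND3, ND4, ND4L, ND5 and COX3), beside 42.4% of all genes changed and 21.4% risen. COX3, a complex IV subunit, had a log2 fold change of 0.54 (SE 0.19, adjusted p = 0.0287) and ND3 one of 0.46 (SE 0.18, adjusted p = 0.047). COX3 was not called in 9 of 29 alternative fits and ND3 in 19 of 29, among them those with the term and without the 6 libraries. The other 8, among them COX1 (0.53, SE 0.25) and CYTB (0.35, SE 0.24), did not pass the test. From GD45 to GD60, where 16.7% of all genes changed and 9.35% rose, ND5 alone rose, and no mitochondrial gene was without overlap between the days, beside 4.29% of all genes that lay wholly higher and 3.67% wholly lower at GD60. ND5 did not pass there without the 6 libraries. ATP8 had the largest log2 fold changes of all, 3.00 from GD45 to GD90, with a large SE and an adjusted p of 0.058.

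The nuclear genes moved less and in both directions. From GD45 to GD60, 0 of the 71 tested rose and 5 fell (7.37% of all genes fell), with 66 of 71 log2 fold changes negative and a median of -0.21. From GD60 to GD90, 9 rose and 1 fell (20.9% of all genes fell), with a median of 0.08. From GD45 to GD90, 7 rose and 16 fell (29.3% of all genes fell), with a median of -0.16. The medians over all genes were -0.01, -0.01 and -0.03. In the 3 comparisons 7.04%, 14.1% and 32.4% of the nuclear genes were called, each below the share of all genes.

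These counts and medians depend on GD45 male 17. Of the 73 nuclear genes with any counts, 52 had their highest CPM of the 18 libraries there, and their sum was 10777 CPM against 6428 to 8394 CPM in the other 5 GD45 libraries. The same library was high in short genes in general. The 742 other genes under 1000 bases lay 0.58 (log2) above their means over all libraries and the 6539 over 5000 bases lay 0.23 below, beside -0.10 to 0.18 and -0.07 to 0.05 in the other GD45 libraries. Without GD45 male 17, the nuclear median from GD45 to GD60 was 0.00 with 0 risen and 5 fallen. From GD60 to GD90 15 rose and 6 fell, and from GD45 to GD90 14 rose and 8 fell. In that fit 20.3%, 49.5% and 58.5% of all genes changed in these comparisons. The part of gene length in these values was not tested.

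**Figure D3:**
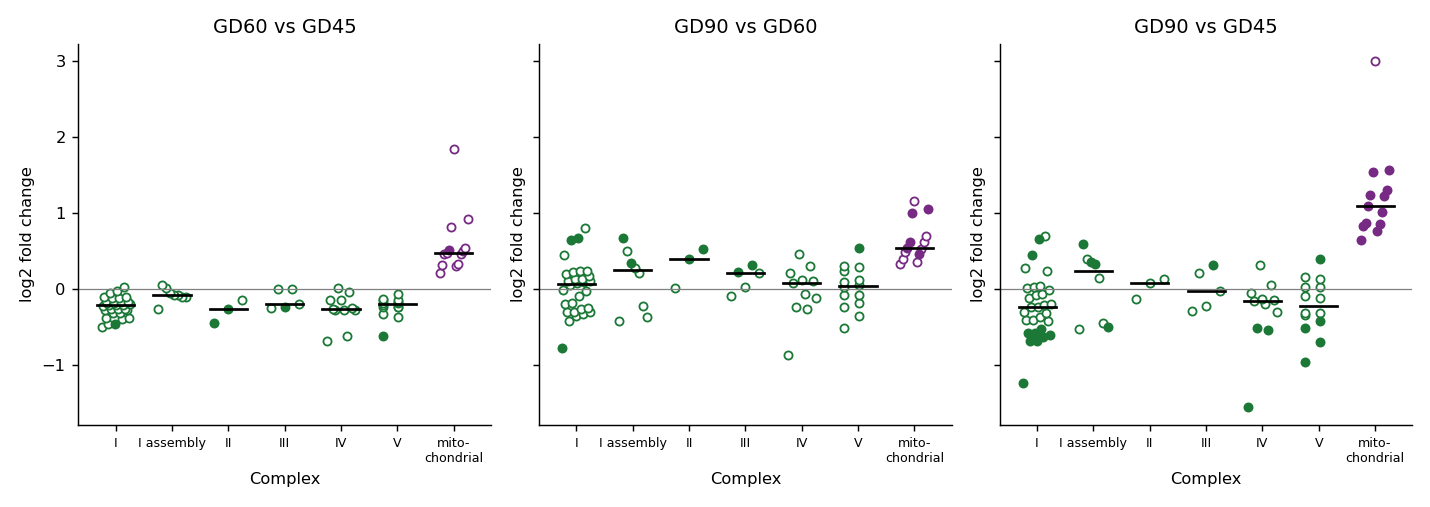
Log2 fold change of each tested nuclear and mitochondrial gene by complex in the 3 comparisons of gestation days. Filled points passed an adjusted p of 0.05, open ones did not, and lines are medians. The mitochondrial genes are above 0 in all 3 comparisons, and the nuclear ones spread around or below it.

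In complex I, 2 structural subunits (of 31 subunit names) and 2 of 8 assembly factors rose from GD60 to GD90, beside 21.4% of all genes. NDUFA5, an accessory subunit of the matrix arm, was at 53.4, 64.2 and 70.4 CPM (lowest, median and highest) at GD45, at 54.8, 61.0 and 70.5 CPM at GD60 and at 83.6, 96.5 and 112 CPM at GD90. The first 2 days were alike in range and every GD90 library was higher. The log2 fold change from GD60 to GD90 was 0.68 (SE 0.09, adjusted p = 2.13e-05). Its gene model shares 1246 of 4452 exon bases with those of IQUB and SLC13A1 on the same strand.

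NDUFS1, the largest subunit of complex I and a carrier of iron-sulfur clusters, was at 51.4 to 72.5 CPM (median 61.9) at GD60 and 87.8 to 102 CPM (median 94.2) at GD90. At GD45 it was at 74.3 to 81.5 CPM in 5 libraries and at 35.5 CPM in male 17. The GD60 and GD90 libraries did not overlap, and the log2 fold change between them was 0.64 (SE 0.13, adjusted p = 0.000588). NDUFAF1, an early assembly factor of the membrane arm, rose by 0.67 (SE 0.15, adjusted p = 0.00179), from 16.4 to 28.5 CPM at GD60 to 30.7 to 38.0 CPM at GD90. It too was lowest in GD45 male 17, at 10.9 CPM against 24.7 to 29.2 CPM. NDUFAF4, another assembly factor, rose by 0.35 (SE 0.11, adjusted p = 0.0171).

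From GD45 to GD90, 8 of the 31 genes with complex I subunit names fell (NDUFB7 was not tested), beside 29.3% of all genes. The assembly factor NDUFAF3 (-0.50, SE 0.17, adjusted p = 0.0175) fell too. The 8 included NDUFA4L2, described next, and NDUFB4, an accessory subunit of the membrane arm. NDUFB4 had a log2 fold change of -0.68 (SE 0.21, adjusted p = 0.00935), or -0.40 without GD45 male 17. The other subunits were NDUFS5, NDUFB3, NDUFB10, NDUFS4, NDUFC2 and NDUFA6, at -0.53 to -0.68, of which NDUFC2 shares 3098 of 3385 exon bases with THRSP. NDUFV1, the subunit that binds NADH, was at 0.27 (SE 0.15) and did not pass. Its gene model shares 935 of 1582 exon bases with a gene on the opposite strand. Of the subunits found through the table of names, NDUFA7 fell by -0.58 (SE 0.22, adjusted p = 0.034) and NDUFB1 by -0.68 (SE 0.25, adjusted p = 0.0262) from GD45 to GD90. Fewer nuclear genes fell in this comparison without GD45 male 17, as given above. Of the falls in this paragraph, a value without that library is given for NDUFB4 alone.

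NDUFA4L2, a paralogue of NDUFA4 known to be induced by hypoxia, fell at each step. Its lowest, median and highest CPM were 40.2, 43.3 and 61.1 at GD45, 28.7, 35.4 and 37.2 at GD60, and 17.1, 19.4 and 23.4 at GD90. No day overlapped another. The log2 fold change was -0.46 (SE 0.14, adjusted p = 0.0303) from GD45 to GD60, -0.78 (SE 0.14, adjusted p = 0.000312) from GD60 to GD90 and -1.24 (SE 0.14, adjusted p = 1.31e-06) over both. NDUFA4 itself was at 154 to 313, 159 to 261 and 188 to 360 CPM at the 3 days, overlapping throughout, with a log2 fold change of 0.31 (SE 0.21) from GD45 to GD90 that did not pass. The NDUFA4L2 model shares 347 of 2422 exon bases with STAC3 on the same strand.

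In complex II, succinate dehydrogenase, the 2 membrane anchors changed at each step. SDHC was at 40.6 to 46.4 CPM (median 44.4) at GD45, 26.2 to 37.5 CPM (median 33.5) at GD60 and 35.4 to 59.7 CPM (median 45.9) at GD90. It was lower in every GD60 library than in any GD45 library, and GD90 overlapped both. It fell by a log2 fold change of -0.45 (SE 0.11, adjusted p = 0.00867) and rose again by 0.53 (SE 0.11, adjusted p = 0.000944). SDHD, the other anchor, took the same course, at -0.26 (SE 0.09, adjusted p = 0.0477) and 0.40 (SE 0.09, adjusted p = 0.00137), where the fall was not called in 20 of 28 alternative fits. SDHB, the iron-sulfur subunit, was at 0.02 (SE 0.17) from GD60 to GD90. SDHA, the flavin-bearing catalytic subunit, found through the table of names, rose from 191 to 231 CPM at GD60 to 256 to 317 CPM at GD90, without overlap and by 0.45 (SE 0.10, adjusted p = 0.00157). From GD45 to GD90 its log2 fold change was 0.60 (SE 0.10, adjusted p = 6.94e-05).

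In complex III, UQCRC2, a core subunit, was at 95.1 to 115 CPM at GD45, 103 to 111 CPM at GD60 and 120 to 145 CPM at GD90. Its GD90 libraries were above all earlier ones, with a log2 fold change from GD60 of 0.32 (SE 0.08, adjusted p = 0.00332). UQCRFS1, the Rieske iron-sulfur protein, fell by -0.24 (SE 0.07, adjusted p = 0.0185) and then rose by 0.22 (SE 0.07, adjusted p = 0.0152), with ranges of 139 to 167, 120 to 146 and 140 to 160 CPM that overlapped. UQCRC1, the partner of UQCRC2, was at 0.02 (SE 0.14) from GD60 to GD90. UQCR11, a small subunit found through the table of names, rose by 0.55 (SE 0.20, adjusted p = 0.0317) from GD60 to GD90, averaged over the sexes. It was at 1.06 in females and at 0.03 in males, where it was not called. Its gene model shares 1477 of 3584 exon bases with MBD3 on the same strand.

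In complex IV, averaged over the sexes, 0 of 11 nuclear genes tested changed from GD45 to GD60 or from GD60 to GD90. Of all genes, 16.7% and 42.4% did. From GD45 to GD90, 3 fell, beside 29.3% of all genes. Within females, COX4I1 rose from GD60 to GD90 by 1.12 (SE 0.37, adjusted p = 0.0346), beside 13.7% of all genes. Within males, COX4I2 (-1.57, SE 0.59, adjusted p = 0.0492) and COX7A2L (-0.60, SE 0.19, adjusted p = 0.0247) fell in that step, beside 16% of all genes. COX4I2, the isoform of subunit 4 known from lung and from cells at low oxygen, had the largest fall of any nuclear gene, from 1.83 to 9.10 CPM (median 3.60) at GD45 to 0.800 to 1.99 CPM (median 1.50) at GD90. The days overlapped, and the log2 fold change was -1.56 (SE 0.40, adjusted p = 0.00345), or -1.11 without GD45 male 17, which held the value of 9.10 CPM. COX4I1, the general isoform, was at 51.6 to 101 CPM at GD90 and had a log2 fold change of -0.16 (SE 0.26) from GD45. Its gene model shares 465 of 816 exon bases with that of IRF8. COX7A2L, a factor that joins complexes III and IV, fell by -0.54 (SE 0.14, adjusted p = 0.00308), but with exon counts it was at -0.06 and did not pass (adjusted p = 0.762, edgeR). COX7C fell by -0.52 (SE 0.21, adjusted p = 0.0416), and its value without GD45 male 17 is not given here. COX7B, found through the table of names, was at -0.44 (SE 0.27) and did not pass.

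In complex V, the 3 genes for the ring subunit c differed in their values. ATP5MC2 was at 44.9 to 108 CPM (median 57.0), 34.0 to 57.4 CPM (median 39.6) and 25.8 to 45.0 CPM (median 31.2) at the 3 days. It fell by -0.62 (SE 0.20, adjusted p = 0.0474) and by -0.97 (SE 0.21, adjusted p = 0.000708) from GD45 to GD60 and to GD90. The first fall was not called in 18 of 28 alternative fits, among them that without GD45 male 17, which had the highest value, and the second was then -0.67. ATP5MC1 and ATP5MC3 were at 0.13 (SE 0.19) and -0.12 (SE 0.13) from GD45 to GD90, and the differences between the 3 genes were not tested. ATP5MC2 shares 246 of 897 exon bases with ATF7.

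ATP5F1D, the delta subunit of the central stalk, rose from GD60 to GD90 by 0.54 (SE 0.15, adjusted p = 0.00956), from 136 to 176 CPM to 175 to 319 CPM, with the days overlapping by 1 library. ATP5PO, a subunit of the peripheral stalk, fell from GD45 to GD90 by -0.70 (SE 0.25, adjusted p = 0.0227), and did not pass without GD45 male 17, at -0.40. ATP5F1A and ATP5F1B, the alpha and beta subunits of the catalytic head, were at 0.02 (SE 0.12) and 0.03 (SE 0.10), and the ATPase inhibitor ATP5IF1 was at 0.16 (SE 0.22).

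**Figure D4:**
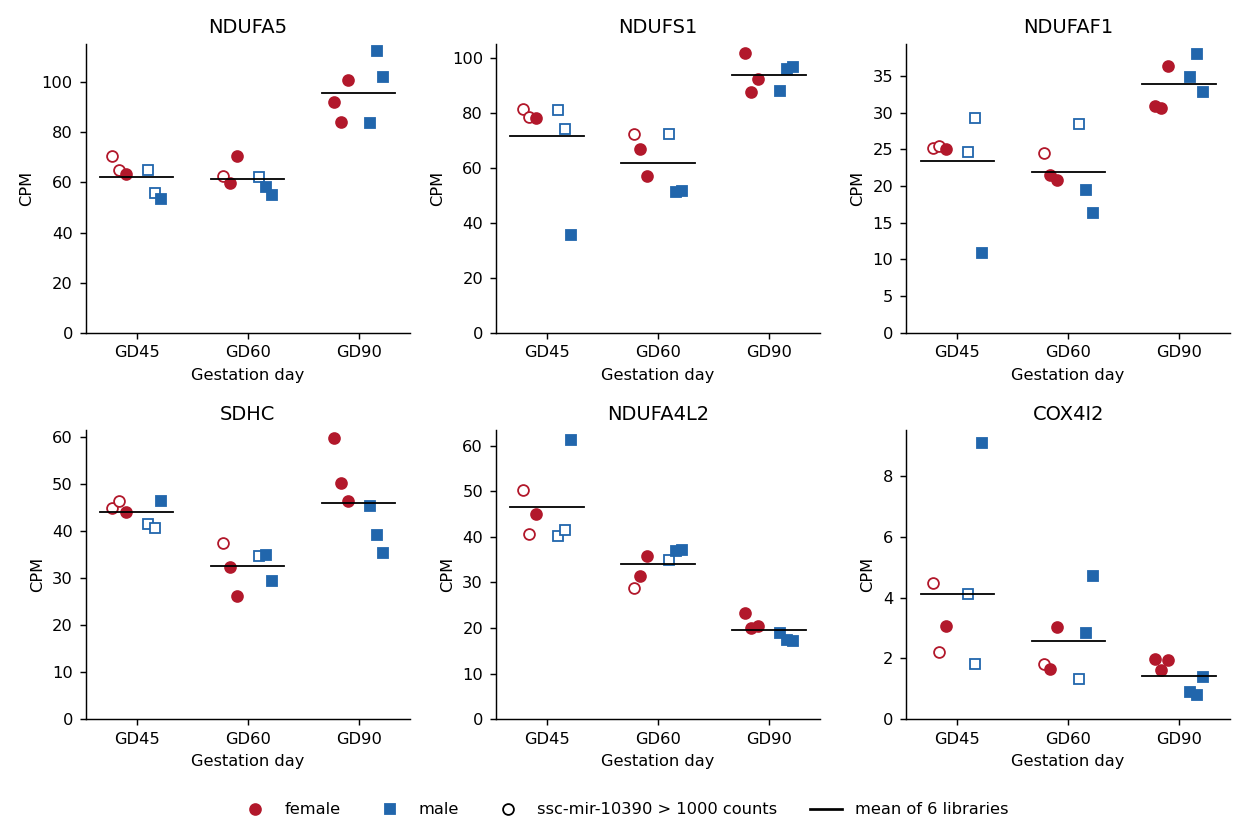
CPM of NDUFA5, NDUFS1, NDUFAF1, SDHC, NDUFA4L2 and COX4I2 in each library by gestation day (circles females, squares males, open symbols the 6 libraries with high ssc-mir-10390, lines the means of 6 libraries). NDUFA5, NDUFS1 and NDUFAF1 at GD90 lie above all earlier libraries, NDUFA4L2 falls at each day without overlap, and SDHC at GD60 lies below all GD45 libraries.

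For 2 of these genes the promoter is shown, as 250 bases before to 50 after the start of the gene model on Sscrofa11.1, read on the minus strand on which both genes lie. They are shown as a gene of complex I that rose to GD90 and a gene of complex II that fell and rose. Capitals mark matches to motifs searched on both strands, namely NRF1 (CGCATGCG), ETS as bound by GABP (CCGGAAG, here as its complement), YY1 (AAGATGGC) and the core of the hypoxia response element (ACGTG, here inside CACGTG).
NDUFS1 chr15:109451627-109451926: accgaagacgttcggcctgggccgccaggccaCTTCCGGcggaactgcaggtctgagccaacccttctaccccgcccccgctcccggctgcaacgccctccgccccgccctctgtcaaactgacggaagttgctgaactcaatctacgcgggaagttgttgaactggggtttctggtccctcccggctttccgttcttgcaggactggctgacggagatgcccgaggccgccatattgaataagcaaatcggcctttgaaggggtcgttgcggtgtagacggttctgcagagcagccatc
SDHC chr4:89169072-89169371: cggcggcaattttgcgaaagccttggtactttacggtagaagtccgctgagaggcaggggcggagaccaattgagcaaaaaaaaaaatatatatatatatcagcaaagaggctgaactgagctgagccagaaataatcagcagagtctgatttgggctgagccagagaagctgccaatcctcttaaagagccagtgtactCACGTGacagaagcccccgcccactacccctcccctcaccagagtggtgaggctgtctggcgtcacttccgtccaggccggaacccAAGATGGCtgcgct
The ETS motif was found in 21.6% of the 74 nuclear windows, beside 13.6% of the windows of tested genes and 8.05% of those of all genes. For NRF1 the shares were 6.76%, 2.33% and 1.38%, for YY1 8.11%, 3.58% and 2.61%, and for ACGTG 20.3%, 23.9% and 19.3%. These are matches of letters and were not tested.

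Between the sexes, 0 of the 84 genes tested differed at GD45, GD60 or GD90 in the edgeR quasi-likelihood test, where 0.0919%, 0.098% and 0.098% of all genes did. With only the libraries compared in the fit, 29 of the genes differed at GD90, all lower in males, beside 6.88% of all genes. At an unadjusted p under 0.05 there were 0, 3 and 19 nuclear genes and no mitochondrial gene, beside 423, 784 and 2213 of all 16325 genes. The nuclear median log2 fold change of males over females was 0.24 at both earlier days, and it was -0.48 at GD90, with 67 of 71 negative. The value at GD45 rests on GD45 male 17, without which the median was -0.19, with 66 of 71 negative.

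At GD90 the nuclear sums were 9284, 7161 and 8082 CPM in females 2, 7 and 9 and 6666, 6414 and 5966 CPM in males 1, 8 and 10. All 3 females were above all 3 males, and the female was higher in each of the 3 litters. For 54 of the 71 nuclear genes (76.1%) all 3 GD90 females were above all 3 males, beside 13.4% of all genes (the reverse held for 22.7%), 57.4% of the 68 mitochondrial ribosome genes and 26.5% of 742 other genes under 1000 bases. Of the mitochondrial genes, 3 of 13 did so. The genes under 1000 bases lay -0.12 to 0.02 (log2) from their means in the GD90 females and -0.25 to -0.21 in the males, and the part of gene length in the nuclear values was not tested. With a trend on gene length removed, the median over nuclear and mitochondrial genes went from -0.46 to -0.30.

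SDHC is an example. It was at 59.7, 50.2 and 46.4 CPM in the GD90 females and 45.4, 39.2 and 35.4 CPM in the males, with a log2 fold change of -0.44 (SE 0.15, adjusted p = 0.35). ATP5MC3 was at 177, 140 and 152 CPM in the females and 119.5, 113.6 and 103.6 CPM in the males, with a log2 fold change of -0.54 (SE 0.19, adjusted p = 0.35). In both the sexes did not overlap. NDUFA5 and NDUFS1, which rose to GD90, were at 0.05 (SE 0.13) and -0.06 (SE 0.18).

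**Figure D5:**
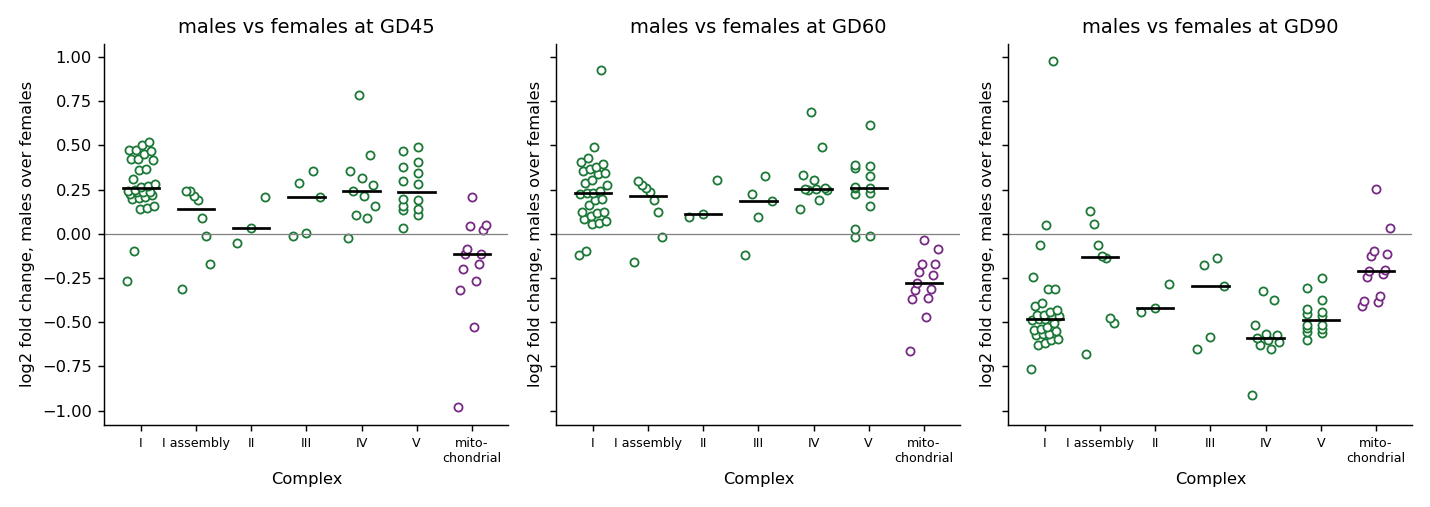
Log2 fold change of males over females for each tested gene by complex at GD45, GD60 and GD90, with medians as lines. The nuclear medians lie above 0 at GD45 and GD60 and below 0 at GD90, the first of them being -0.19 without GD45 male 17, and none of the genes passed an adjusted p of 0.05.

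Within females, 14 of 71 nuclear genes rose and 0 fell from GD60 to GD90 (27.1% of all genes changed, 13.7% up and 13.4% down), with a median of 0.40. Within males, 3 rose and 7 fell (34.5% of all genes changed, 18.5% up and 16% down), with a median of -0.31. Of the nuclear rises to GD90 named above, NDUFA5, NDUFS1 and NDUFAF1 were called in both sexes and UQCRFS1 in neither. SDHC, SDHD, SDHA, UQCRC2, UQCR11, ATP5F1D and NDUFAF4 were called in females alone. Their log2 fold changes were 0.80, 0.69, 0.60, 0.45, 1.06, 0.94 and 0.53 in females. In males they were 0.26, 0.10, 0.29, 0.18, 0.03, 0.15 and 0.17. The test of the difference, the interaction of sex and day, called 0 genes (0% of all genes), although 28 of 71 nuclear genes, beside 3232 of all 16325, had an unadjusted p under 0.05. Of the 71, 66 were negative, with a median of -0.71. The lowest adjusted p among them was 0.18, for NDUFA1, a small subunit of complex I encoded on chromosome X. The NDUFA1 model shares 866 of 1475 exon bases with RNF113B on the opposite strand. GD45 male 17 is in neither day compared, and enters these values through the gene filter, scaling and spread shared by the fit. Without it, 33 of the genes passed, all lower in males, and 13.3% of all genes did. With only the libraries compared, 18 passed, all lower in males, beside 7.14% of all genes. From GD45 to GD60, 1 nuclear gene changed in females (7.22% of all genes, 2.88% down), SDHD, which fell, and 0 in males (5.61%). No mitochondrial gene changed in that step in either sex. From GD60 to GD90, ND5 rose in females, and ND4, ND4L and ND5 rose in males.

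The partners of the chain took their own courses. Of 19 carriers and matrix enzymes tested, 11 rose and 1 fell from GD60 to GD90 (median 0.28), beside 21.4% of all genes that rose and 20.9% that fell. They included CYCS, cytochrome c, at 0.79 (SE 0.11, adjusted p = 2.33e-05), SLC25A5, an ADP/ATP carrier, at 1.20 (SE 0.11, adjusted p = 3.63e-07), and IDH3A, of the citrate cycle, at 1.13 (SE 0.19, adjusted p = 0.000139). SLC25A6, another ADP/ATP carrier, fell by -0.58 (SE 0.20, adjusted p = 0.0251). None of the 19 changed from GD45 to GD60, where 2 had an unadjusted p under 0.05. Of 20 genes of mitochondrial DNA expression and biogenesis, 3 rose and 8 fell from GD60 to GD90. PPARGC1A, a coactivator of mitochondrial biogenesis, rose by 0.94 (SE 0.15, adjusted p = 0.000123), while TWNK, the mitochondrial DNA helicase, fell by -1.14 (SE 0.11, adjusted p = 3.13e-07) and POLRMT, the mitochondrial RNA polymerase, fell by -0.43 (SE 0.09, adjusted p = 0.000939). Of 27 assembly factors outside the naming rule, 3 rose and 2 fell. Of 68 mitochondrial ribosome genes, 1 rose and 4 fell from GD60 to GD90, and 1 rose and 25 fell from GD45 to GD90 (median -0.28), beside 28.3% of all genes that rose and 29.3% that fell in the latter.

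A few genes could not be followed. NDUFB7 had 0 counts in all 18 libraries, which allows up to 3 counts per library, and all of its annotated bases lie opposite another gene. COX7A1, the muscle isoform of subunit 7a, had 16 counts in all and at most 3 in a library, and 2189 of its 2320 annotated bases lie opposite CAPNS1. COX6B2, the testis isoform of subunit 6b, had 90 counts in all and at most 16 in a library. These 3 were not tested. COX6B1 and COX8C are not named in the table. COX6A1, which shares 4126 of 4860 bases with GATC, and COX6A2, the general and muscle isoforms of subunit 6a, were at -0.05 (SE 0.17) and -0.15 (SE 0.18) from GD45 to GD90, and COX7A2 and COX8A were at -0.31 (SE 0.21) and -0.14 (SE 0.21). Of the 74 nuclear genes, 32 share exon bases with another gene and 9 share more than 50% of them, and how such reads were counted, and whether by strand, is not given in the sources used here.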

How the data were processed

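Reads of oligo(dT)-selected RNA were checked with FastQC, trimmed with Trimmomatic, aligned to Sscrofa11.1 with HISAT2 and counted by the authors with featureCounts on the Ensembl annotation, per the labels and the study's methods. The values are raw read counts per gene and per exon as deposited by the authors, without normalization. The options for strand, shared reads and reads with several matches are not given in the sources used here. A table of counts per transcript was not used here.

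The 22 count columns were reduced to 18 libraries by summing the 2 runs of 4 libraries, whose counts differed by more than sampling noise. CPM values are counts over the library total times a constant, and depth was 15118843 to 19729783 counts per library. A count of 0 allows up to 3 counts. This limit concerns counting error alone, as PCR copies were not told apart by molecular identifiers.

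Genes were kept by filterByExpr (16325, with 99.9% of counts) and fitted with edgeR 4.0.16 in R 4.3.3 (TMM, 6 groups of sex and day, quasi-likelihood F test, Benjamini-Hochberg adjustment over all genes, threshold 0.05). Day comparisons are averaged over the sexes unless a sex is named. Positive log2 fold changes are higher at the later day, or in males. The steps were tested on simulated counts. Named genes were all mitochondrial members, the 5 largest rises and falls among the called nuclear members of each day comparison with a mean of at least 1 CPM, and the isoforms, complex II subunits, catalytic subunits and low-count members of a list. Other genes were named after their values were seen. The members and lists were chosen with earlier results of these data known. Alternatives comprised edgeR's likelihood ratio test, DESeq2 1.42.0, no TMM, other filters, exon counts, a gene-length trend removed, only the libraries compared, littermates summed or blocked, and each library left out. The fits that treat ssc-mir-10390 were chosen after seeing the data. Littermates were inferred from litter size and enter as separate fetuses. Nuclear copies of MT were found with blastn 2.17.0 (at least 98% identity over 100 bases, or 94% identity where stated).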

Additional observations from a re-analysis of the deposited data

Results flagged for a closer look

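In groups of 6 libraries per day, 33 values were searched for a library far from the others (gap over range above 0.625), and 6 were found, where chance gives about 1 in 20. GD45 female 18 had 3.19 mitochondrial counts per nuclear count, against 1.49 to 1.99 in the other GD45 libraries. GD60 female 15 had 4.74, against 2.34 to 3.16. GD45 male 17 stood apart in 4 nuclear genes. NDUFAF1 was at 10.9 CPM there, against 24.7 to 29.2, and NDUFS1 at 35.5 CPM, against 74.3 to 81.5. COX4I2 was at 9.10 CPM, against 1.83 to 4.48, and ATP5MC2 at 108 CPM, against 44.9 to 64.7.

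The gene ssc-mir-10390, which is no member, had at least 2050 counts in each of 6 libraries, against 2 to 26 in the other 12. The cause of these values was not tested.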

How the results depend on the processing

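The nuclear genes called, 5, 10 and 23 for GD60 against GD45, GD90 against GD60 and GD90 against GD45, and the mitochondrial genes, 1, 5 and 12, changed by over 1.5 times as follows. The likelihood ratio test gave 2 mitochondrial genes from GD45 to GD60 and 2 in females from GD60 to GD90 (1 by the main test). DESeq2 gave the same 2 and 2, and 2 nuclear genes in females and 1 in males from GD45 to GD60 (1 and 0 by the main test). Library sizes without TMM gave 0 and 2 mitochondrial genes in the first 2 of these. With the length trend removed, mitochondrial calls were 5 from GD45 to GD60 and 8 from GD60 to GD90 (3 in females, 7 in males), and nuclear calls were 21 from GD60 to GD90 and 0 in females from GD45 to GD60. A minimum of 1 CPM in 3 libraries gave 2 mitochondrial genes from GD45 to GD60, and no filter gave 2 there, 2 in females from GD60 to GD90, and 0 nuclear genes in females from GD45 to GD60. Exon counts gave 2 nuclear and 0 mitochondrial genes from GD45 to GD60 (0 nuclear in females), 3 mitochondrial genes from GD60 to GD90 (5 nuclear in males) and 11 nuclear genes from GD45 to GD90, with mitochondrial shares of 3.28%, 4.60% and 5.99% at GD45, GD60 and GD90. With only the libraries compared, 2 nuclear and 0 mitochondrial genes were called from GD45 to GD60, and 21 nuclear genes from GD60 to GD90 (24 in females and 35 in males, with 2 and 7 mitochondrial). In that setting 29 genes differed between the sexes at GD90 and 18 in the interaction from GD60 to GD90, all lower in males, where the main test gave 0. Summed littermates gave 1 nuclear and 2 mitochondrial genes from GD45 to GD60 and 3 mitochondrial genes from GD60 to GD90. A litter block in the sex comparisons changed no call. With ssc-mir-10390 as a term, 3 mitochondrial genes were called in females from GD60 to GD90. Without the 6 libraries, 6 were called from GD45 to GD90, 2 in males from GD45 to GD60 and 2 in females from GD60 to GD90, and the GD45 share was 2.12%. Leaving out 1 library gave 1 to 9 nuclear and 0 to 6 mitochondrial genes from GD45 to GD60, 10 to 21 and 3 to 9 from GD60 to GD90, and 16 to 32 and 9 to 13 from GD45 to GD90. The lowest nuclear count in the first came without GD45 female 12, GD60 female 5 or GD60 male 6, the highest without GD45 male 14, and the highest mitochondrial counts without GD45 male 17 (6) and GD60 female 15 (9). In females the ranges were 0 to 11 nuclear and 0 to 0 mitochondrial genes from GD45 to GD60, and 6 to 36 and 1 to 7 from GD60 to GD90 (6 without GD90 female 2). In males they were 0 to 0 in the first step, and 3 to 30 and 2 to 3 in the second (3 without GD60 male 6 or 16). Sex comparisons stayed at 0 calls, and the interaction ranged from 0 to 0 in the first step and 0 to 33 in the second. The highest nuclear counts within sexes (11, 36 and 30) and of the interaction (33) came without GD45 male 17. The mitochondrial share ranged over 1.44% to 1.67%, 1.87% to 2.34% and 2.94% to 3.09%, and the nuclear sum over 7349 to 8218, 6815 to 7208 and 6858 to 7522 CPM. The cause of these changes was not tested, apart from fewer libraries in the fits that leave some out. None of the 45 comparisons of days called for a named gene reversed direction in the settings run.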
